A study of Mus musculus with 2 samples.

Results

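The serotonin and monoamine genes described here are 10 of the 27998 genes in the count tables of 2 mouse small cell lung tumors, read in single cells. They are *Tph1*, *Ddc*, *Th* and *Gch1* for synthesis, *Slc18a1*, *Slc18a2* and *Slc6a4* for transport, *Maoa* and *Maob* for breakdown, and *Htr3a* for reception. They were chosen by symbol for these roles, and each symbol was found once in the tables. Both tumors, TKO1 and TKO2, came from the lungs of mice whose label gives the genotype Rb-/-; Trp53-/-; Rbl2-/- with a Rosa26 membrane-Tomato/membrane-GFP reporter. The label gives a mixed background of 129/SvOla, 129/SVJ and the strain C57BL/6. The genotype labels of both are of the same alleles, while the series' design text speaks of 2 different models. The mice were 8 to 9 months old, and 1 tumor per mouse was taken 7 months after an adenovirus carrying Cre under the CMV promoter was given. That promoter is active in many cell types, so it does not by itself fix the cell in which a tumor began. Tumors were digested to single cells, sorted for live cells and captured by droplets on the 10x Chromium, so that each count is a unique molecular identifier (UMI), a tag that marks 1 captured RNA molecule.

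Monoamines are made from amino acids in a short chain of enzymes. *Tph1* encodes the tryptophan hydroxylase of peripheral tissues, which performs the first step to serotonin, and *Th* encodes tyrosine hydroxylase, which performs the first step to dopamine and noradrenaline. Both enzymes need tetrahydrobiopterin, a cofactor whose synthesis starts with the product of *Gch1*, and both chains then pass through the decarboxylase encoded by *Ddc*. Vesicular transporters load the amine into secretory granules, a plasma membrane transporter takes serotonin back up, monoamine oxidases degrade the amine, and *Htr3a* encodes a subunit of the serotonin-gated ion channel. In the lung, the pulmonary neuroendocrine cell is the classical epithelial store of serotonin, and small cell lung cancer is a neuroendocrine tumor.

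The tables held 4514 barcodes for TKO1 and 3816 for TKO2, of which 3193 and 3568 had more than 500 detected genes and were retained. The retained cells had 4566658 UMIs in TKO1 and 8105281 in TKO2, with medians per cell of 1223 and 1960 UMIs. Of the barcode sequences, 22 occurred in both tables, 11 of them among the retained cells. Retained cells were clustered in each tumor, and the clusters led by macrophage or club cell markers, and 1 cluster of TKO2 that carried club and neuroendocrine markers together, were set aside. The remaining 2987 cells of TKO1 (4222311 UMIs) and 3380 cells of TKO2 (7758321 UMIs) are called tumor cells below. In each cluster kept, 9 to 14 of 16 neuroendocrine markers were at least 2-fold above the macrophage-like cells. None of the 16 was among the 10 leading genes of any cluster kept. All 16 had UMIs in the tumor cells of both tumors, though *Stmn2* had only 2 UMIs in TKO1. The summed level of those markers was 22021 UMIs per 1000000 in TKO1 (71571 of 92979 UMIs from *Calca*) and 1656 in TKO2. In TKO2 the mixed cluster that was set aside had the highest summed level of them, 7667, against at most 2235 in any cluster kept. Of the other lists, the summed level in the tumor cells of TKO1 and TKO2 was 40.5 and 13.8 for macrophage markers (10 and 11 of 12 with a UMI), 425 and 26.6 for club markers (8 and 5 of 8), and 228 and 22.0 for ciliated markers (7 and 5 of 7). It was 2.84 and 77.6 for endothelial markers (4 and 2 of 6), where *Egfl7* gave 598 of the 602 UMIs in TKO2. The part of these markers in the differences between the tumors was not tested. In TKO1, clusters 3 and 5 had more markers of another cell type than neuroendocrine ones among their 10 leading genes (the fibroblast marker *Dcn* in cluster 3, the ciliated markers *Cfap126*, *Tppp3* and *Dynlrb2* in cluster 5). Ratios or shares of *Tph1*, *Th* and *Gch1* are also given without these 698 cells, and the ranges of log2 ratios at the end include this setting. All other values include these cells, among them those of the further pathway genes and the correlations over clusters. The 3 deleted genes still gave UMIs in tumor cells (326 in TKO1 and 118 in TKO2 for *Rb1*, 206 and 488 for *Trp53*, 40 and 14 for *Rbl2*). UMIs counted near the end of a transcript can lie outside the deleted part, so these counts did not check the genotype. Each tumor is 1 library, so tumor, mouse, any difference of model and library cannot be told apart, no test was possible, and every interval below is a 95% interval for counting error only.

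The question asked of these genes was how far the 2 tumors differ in the steps of monoamine handling, and whether those steps meet in the same cells. Of the 10 genes, 7 had at least 10 UMIs over the tumor cells of both tumors. Of the 7, 5 were at least 2-fold higher in TKO1 and 2 were at least 2-fold higher in TKO2, while 31.1% of the 12922 genes counted were at least 2-fold higher in TKO1 and 12.3% in TKO2 (43.4% in either direction). The median log2 ratio of TKO1 over TKO2 was 1.05 for the 7 genes and 0.37 for all genes counted. With that shift of 0.37 subtracted, *Th*, *Gch1* and *Slc18a1* remained at least 2-fold higher in TKO1, *Maoa* and *Htr3a* in TKO2, and *Tph1* and *Ddc* were under 2-fold (23.2% and 18.7% of all genes on this scale). The other 3 genes, *Slc18a2*, *Slc6a4* and *Maob*, had 4 UMIs or fewer in the tumor cells of either tumor.

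**Figure D1:**
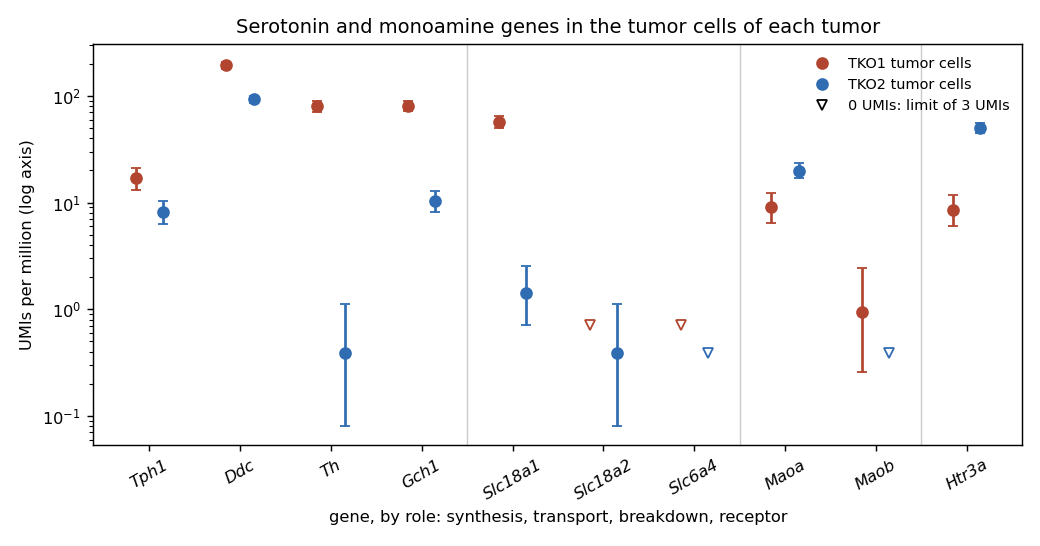
Level of each gene in UMIs per 1000000 UMIs (log axis) in the tumor cells of TKO1 (red, 2987 cells) and TKO2 (blue, 3380 cells), grouped by role. Bars are exact Poisson 95% intervals, and open triangles stand at the limit of 3 UMIs for genes with 0 UMIs. *Th*, *Gch1* and *Slc18a1* lie far apart between the tumors with TKO1 above, and *Htr3a* with TKO2 above.

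*Th* differed most between the tumors among the 7 genes. It had 336 UMIs in 282 tumor cells of TKO1 (79.6 CPM, that is, UMIs of the gene per 1000000 UMIs of the tumor cells, interval 71.3 to 88.6) and 3 UMIs in 2 tumor cells of TKO2 (0.387 CPM, 0.0797 to 1.13). The log2 ratio was 7.69 (6.13 to 9.97), a 206-fold difference, and it was 7.86 (6.30 to 10.15) without clusters 3 and 5 of TKO1. The gene was thus read in 9.44% of TKO1 tumor cells and 0.0592% of TKO2 tumor cells as counted. Sympathetic neurons also express *Th*. Of their 3 markers read here, *Dbh* and *Slc6a2* had 0 UMIs in the tumor cells of either tumor, and *Phox2a* had 13 UMIs in TKO1 and 14 in TKO2.

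*Gch1*, which opens the cofactor pathway that both hydroxylases depend on, was also higher in TKO1. It had 340 UMIs there (80.5 CPM, 72.2 to 89.6) against 80 in TKO2 (10.3 CPM, 8.18 to 12.8), a log2 ratio of 2.97 (2.61 to 3.34). Macrophage-like cells carried *Gch1* as well, with 8 UMIs in each tumor (55.9 CPM in TKO1, 24.2 to 110, and 35.5 in TKO2, 15.3 to 70.0). The *Gch1* level in the tumor cells of TKO2 was therefore below that of the macrophage-like cells of the same tumor, and in TKO1 it lay within their interval. Club-like cells of TKO1 gave 18 *Gch1* UMIs (89.4 CPM, 53.0 to 141).

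*Ddc*, the decarboxylase shared by both chains, was read in both tumors and was higher in TKO1. It had 815 UMIs in 614 cells of TKO1 (193 CPM, 180 to 207) and 721 UMIs in 560 cells of TKO2 (92.9 CPM, 86.3 to 99.97), a log2 ratio of 1.05 (0.91 to 1.201). Macrophage-like cells gave 9 UMIs in TKO1 (62.9 CPM, 28.8 to 120) and 17 in TKO2 (75.5 CPM, 44.0 to 121). The level in tumor cells was thus above that in macrophage-like cells in TKO1 (log2 ratio 1.62, 0.69 to 2.75), and not distinguishable from it by summed counts in TKO2 (0.30, -0.39 to 1.09). Club-like cells of TKO1 gave 19 *Ddc* UMIs (94.4 CPM, 56.8 to 147).

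*Tph1*, the committing enzyme for serotonin, was found in few cells. It had 71 UMIs in 52 cells of TKO1 (16.8 CPM, 13.1 to 21.2) and 63 UMIs in 42 cells of TKO2 (8.12 CPM, 6.24 to 10.4), a log2 ratio of 1.05 (0.54 to 1.56). A single cell of TKO2 held 10 of its 63 UMIs, and the log2 ratio without that cell was 1.30. Without clusters 3 and 5 of TKO1, 30 UMIs remained there (8.98 CPM, 6.06 to 12.8) and the log2 ratio was 0.15 (-0.53 to 0.79). Of the 41 UMIs left out, 33 were in cluster 3 and 8 in cluster 5. *Tph1* had 0 UMIs in the macrophage-like cells of both tumors (98 cells in TKO1 and 121 in TKO2) and in the 108 club-like cells of TKO1. At the limit of 3 UMIs this allows up to 21.0 and 13.3 CPM in macrophage-like cells and 14.9 CPM in club-like cells. These limits are near or above the levels in tumor cells, so the zeros do not tell the cell types apart. Mast cells are another known source of *Tph1*. Of 8 mast cell and basophil markers, 7 had 0 UMIs in the tumor cells of either tumor, and *Gata2* had 0 UMIs in TKO1 and 57 in TKO2.

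The promoters of the 4 synthesis genes are shown as sequence. These genes differed between the tumors from 2.07-fold for *Tph1* to 206-fold for *Th*, and no link of sequence to level was tested. The 250 bases before a RefSeq transcript start were available for 7 of the 10 genes (GRCm38.p6), not for *Slc18a1*, *Htr3a* and *Maob*. They gave 9 windows in all, as *Tph1* and *Ddc* each have 2. The *Ddc* window at chr11:11898145-11898394 is not printed. Capitals mark TGACG or its reverse complement CGTCA, the core letters of the cyclic AMP response element, searched on both strands.
Th, chr7:142899996-142900245, minus strand: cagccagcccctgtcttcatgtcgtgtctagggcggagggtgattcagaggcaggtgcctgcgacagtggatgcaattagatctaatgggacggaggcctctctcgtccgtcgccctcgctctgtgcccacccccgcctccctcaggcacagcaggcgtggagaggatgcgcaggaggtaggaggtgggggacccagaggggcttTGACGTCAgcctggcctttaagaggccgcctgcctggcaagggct
Tph1, chr7:46667378-46667627, minus strand: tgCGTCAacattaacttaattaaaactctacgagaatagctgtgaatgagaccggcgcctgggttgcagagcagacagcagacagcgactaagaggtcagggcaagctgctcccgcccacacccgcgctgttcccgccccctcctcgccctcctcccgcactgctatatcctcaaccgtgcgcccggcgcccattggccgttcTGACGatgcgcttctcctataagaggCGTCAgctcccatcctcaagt
Tph1, chr7:46672538-46672787, minus strand: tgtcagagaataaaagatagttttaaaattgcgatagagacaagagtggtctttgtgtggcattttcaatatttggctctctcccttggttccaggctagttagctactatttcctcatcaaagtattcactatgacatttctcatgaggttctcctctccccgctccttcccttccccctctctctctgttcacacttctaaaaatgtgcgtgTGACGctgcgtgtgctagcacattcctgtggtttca
Gch1, chr14:47189414-47189663, minus strand: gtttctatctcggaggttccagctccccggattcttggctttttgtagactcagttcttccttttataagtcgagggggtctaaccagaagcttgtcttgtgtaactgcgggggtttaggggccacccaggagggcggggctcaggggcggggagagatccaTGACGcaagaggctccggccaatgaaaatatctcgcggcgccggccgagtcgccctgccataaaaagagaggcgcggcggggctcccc
Ddc, chr11:11890409-11890658, minus strand: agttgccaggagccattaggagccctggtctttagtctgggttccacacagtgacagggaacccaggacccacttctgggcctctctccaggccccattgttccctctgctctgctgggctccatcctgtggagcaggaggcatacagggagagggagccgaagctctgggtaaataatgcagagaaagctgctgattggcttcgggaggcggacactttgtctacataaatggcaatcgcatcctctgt
The letters occurred in 6 of the 9 windows, and in 17.8% of 32851 promoter windows of the same length. The 6 windows belong to 5 of the 7 genes (*Tph1*, with both of its windows, *Th*, *Gch1*, *Slc6a4* and *Maoa*). The 17.8% is a share of windows and not of genes, and no enrichment was tested. The full palindrome TGACGTCA, which holds the core letters on both strands, was found in the *Th* window alone of the 9, and in 1.55% of all windows. In the *Th* window the core letters stood 45 and 42 bases before the start. The first *Tph1* window held the letters at 248, 47 and 21 bases before the start, and neither *Ddc* window held them. Letters of the E-box, a different short motif, were searched as well. CAGCTG was in the *Slc18a2* and *Slc6a4* windows (13.0% of all windows), and CAGGTG in the *Th* window (17.2% of all windows). These matches describe letters and do not show a site in use.

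The genes lie apart in the mouse genome (GRCm38). *Tph1* (chr7:46644641-46672537) and *Th* (chr7:142892752-142931128) share chromosome 7, *Ddc* lies at chr11:11814101-11898144 and *Gch1* at chr14:47153895-47189413, all on the minus strand. *Slc18a1* (chr8:69037711-69089235, minus strand) overlaps *Atp6v1b2* on the other strand, which had 552 UMIs in TKO1 and 581 in TKO2. *Maoa* (chrX:16619698-16687818) and *Maob* (chrX:16709282-16817366) are neighbours on opposite strands, 21463 bases apart at their ends. *Htr3a* lies at chr9:48899213-48911099 on the minus strand.

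Of the vesicular transporters, only *Slc18a1*, the form typical of endocrine cells, was found in number, and it followed the pattern of *Th* between the tumors. It had 241 UMIs in 206 cells of TKO1 (57.1 CPM, 50.1 to 64.8) and 11 UMIs in 11 cells of TKO2 (1.42 CPM, 0.708 to 2.54), a log2 ratio of 5.33 (4.47 to 6.35). *Slc18a2*, the form of neurons and mast cells, had 0 UMIs in TKO1, which allows up to 0.71 CPM (3 UMIs), and 3 UMIs in 3 cells of TKO2. *Slc6a4*, the serotonin reuptake transporter, had 0 UMIs in tumor cells of both tumors, which allows up to 0.71 CPM in TKO1 and 0.387 in TKO2. All 4 *Slc6a4* UMIs among retained cells fell in macrophage-like cells, 3 in TKO1 and 1 in TKO2. Those 4 cells held 29 to 151 UMIs of the macrophage markers and 0 UMIs of the endothelial and platelet markers.

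The 2 genes of breakdown were both sparse, and *Maoa* was the one counted. It had 38 UMIs in 34 cells of TKO1 (9.00 CPM, 6.37 to 12.3) and 154 UMIs in 132 cells of TKO2 (19.8 CPM, 16.8 to 23.2), a log2 ratio of -1.14 (-1.69 to -0.62). Macrophage-like cells had 2 *Maoa* UMIs in TKO1 (13.98 CPM, 1.69 to 50.5) and 9 in TKO2 (40.0 CPM, 18.3 to 75.8). Tumor cells were not distinguishable from them, with log2 ratios of tumor over macrophage-like cells of -0.64 in TKO1 (-2.59 to 2.46) and -1.01 in TKO2 (-1.97 to 0.15). *Maob* had 4 UMIs in the tumor cells of TKO1 and 0 in those of TKO2, while the 108 club-like cells of TKO1 alone gave 4.

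The serotonin-gated channel subunit *Htr3a* went the other way from *Th*, *Gch1* and *Slc18a1*. *Tph1* and *Ddc* were under 2-fold between the tumors once the shift of all genes was subtracted. *Htr3a* had 36 UMIs in 32 cells of TKO1 (8.53 CPM, 5.97 to 11.8) and 387 UMIs in 290 cells of TKO2 (49.9 CPM, 45.0 to 55.1), a log2 ratio of -2.55 (-3.08 to -2.05). In TKO2, 67 tumor cells had at least 2 UMIs of it and 1 cell had 6. Macrophage-like cells had 0 *Htr3a* UMIs in TKO1, which allows up to 21.0 CPM (3 UMIs), and 2 in TKO2 (8.88 CPM, 1.08 to 32.1). *Htr3b*, the usual partner subunit, had 0 UMIs in the tumor cells of both tumors.

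Because cells of TKO2 were read more deeply, shares of cells with a UMI were compared after each cell was thinned to 1000 UMIs, which left 2148 tumor cells of TKO1 and 3019 of TKO2 and set aside 839 and 361. *Ddc* was then found in 16.1% of TKO1 tumor cells (14.5 to 17.7) and 8.61% of TKO2 tumor cells (7.64 to 9.67), against 20.6% and 16.6% without thinning. *Th* was found in 7.17% of TKO1 cells (6.11 to 8.34) and 0.0662% of TKO2 cells (0.00802 to 0.239). *Slc18a1* was found in 4.38% and 0.166%, and *Tph1* in 1.26% (0.830 to 1.82) and 0.927% (0.617 to 1.34). Without clusters 3 and 5 of TKO1 the share in TKO1 was 0.533% for *Tph1* and 8.89% for *Th*. *Htr3a* was found in 0.745% of TKO1 cells and 4.01% of TKO2 cells. The intervals of the 2 tumors were apart for *Ddc*, *Th*, *Gch1*, *Slc18a1*, *Maoa* and *Htr3a*, and overlapped for *Tph1*. How many of all genes had intervals apart was not counted, so this is no trait of these genes. By summed levels, 43.4% of the 12922 genes counted were at least 2-fold apart between the tumors.

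The same shares were read in macrophage-like cells, another cell type of the same libraries (82 thinned cells in TKO1 with a median of 1433 UMIs before thinning, 112 in TKO2 with 1718, against 1393 and 2107 in tumor cells). *Ddc* was found in 3.66% of them in TKO1 (0.761 to 10.3) and 3.57% in TKO2 (0.982 to 8.89). *Gch1* was found in 7.32% and 3.57% of them, against 6.94% and 1.26% of tumor cells. *Maoa* was found in 2.44% and 5.36%, against 0.885% and 1.95% of tumor cells. For both genes the intervals of these cell types overlapped in each tumor. In TKO2 the summed level of *Gch1* was higher in macrophage-like than in tumor cells (35.5 against 10.3 CPM). That of *Maoa* was not distinguishable (40.0 against 19.8 CPM, log2 ratio of tumor over macrophage-like cells -1.01, -1.97 to 0.15). Whether UMIs in macrophage-like cells came from their own expression or from free RNA was not tested. *Tph1* and *Htr3a* were found in 0 of the 82 and 0 of the 112 cells, which allows up to 3.66% and 2.68% (3 cells of the total, the limit used here for every count of 0). In the 93 thinned club-like cells of TKO1, *Ddc* was found in 7.53% (3.08 to 14.9) and *Gch1* in 6.45% (2.40 to 13.5). Both intervals overlapped those of the tumor cells of TKO1.

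**Figure D2:**
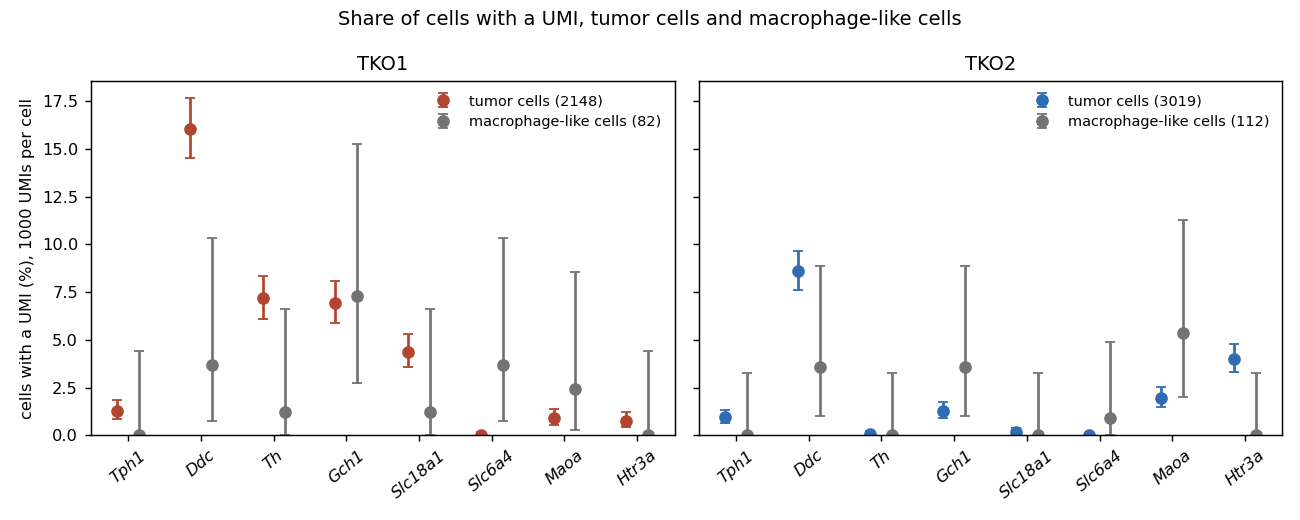
Percent of cells with at least 1 UMI of each gene except *Slc18a2* and *Maob*, which are not drawn, after thinning to 1000 UMIs per cell. Tumor cells (colored) and macrophage-like cells (gray) of TKO1 (left) and TKO2 (right) are shown with exact Clopper-Pearson 95% intervals. *Ddc* stands above the macrophage-like cells in TKO1 (16.1% against 3.66%), whereas *Gch1* does not in either tumor.

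Within TKO1, *Tph1* and *Th* were high in different clusters. The same counts defined the 8 tumor-cell clusters, and differences between them are descriptions. *Tph1* was highest in cluster 3 (33 UMIs, 70.4 CPM) and cluster 7 (18 UMIs, 53.0 CPM), which together held 20.4% of the tumor cells and 71.8% of the *Tph1* UMIs. In the other 6 clusters *Tph1* ranged from 0 UMIs in cluster 6 to 19.4 CPM in cluster 5. *Th* was low in those same 2 clusters, with 40.5 CPM in cluster 3 and 14.7 in cluster 7, and reached 124 in cluster 1, 122 in cluster 2 and 129 in cluster 6. Clusters 1, 2 and 6 held 39.9% of the cells and 67.3% of the *Th* UMIs, but 7 of the 71 *Tph1* UMIs. The fibroblast list was also highest in clusters 3 and 7 among the 8 (91.7 and 44.2 CPM, against 8.11 or less in the others), nearly all from *Dcn*, while *Col1a1*, *Col3a1*, *Pdgfra* and *Lum* had 0 UMIs in the tumor cells of TKO1. Its part in the *Tph1* level was not tested.

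The first leading genes of cluster 7 of TKO1 were *Nefm* and *Nefl*, of neuronal filaments, *Iapp* and *Neurog3*, of endocrine lineages, and *Mycl*. Cluster 3 was led by *Dusp26*, *Tspan8* and *Rgs4*, with *Dcn* and *Anxa1* among its 10 leading genes. Cluster 6, with the highest *Th* level and no *Tph1*, was led by *Crabp1* and by S phase genes such as *Clspn* and *E2f8*. *Ddc* varied less between clusters, from 112 CPM in cluster 7 to 243 in cluster 6, and *Slc18a1* from 38.8 in cluster 5 to 87.4 in cluster 3. *Gch1* was highest in cluster 5 (133 CPM) and lowest in cluster 4 (53.5), the cluster led by mitotic genes. *Htr3a* stayed at 19.4 CPM or less in each of the 8 clusters of TKO1.

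**Figure D3:**
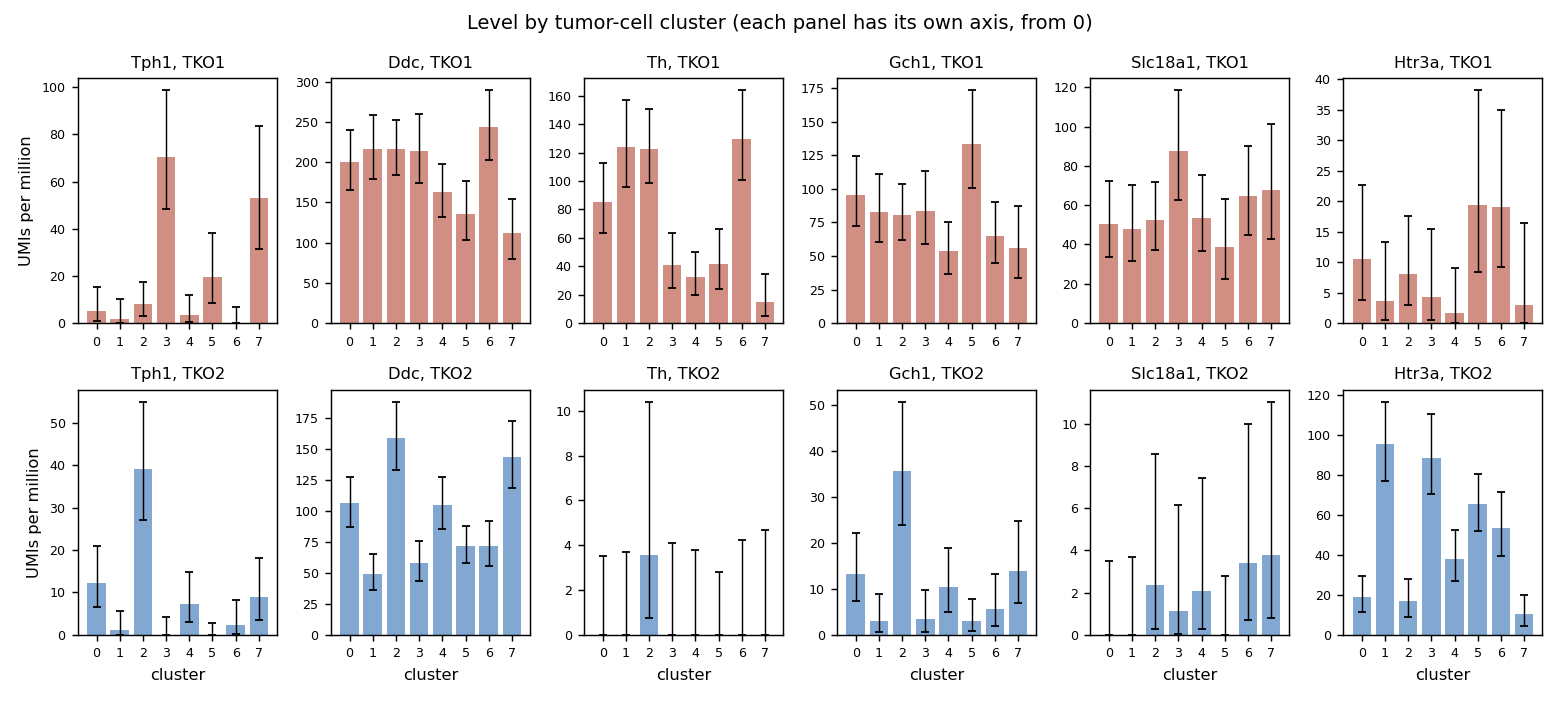
Level of 6 genes in CPM in each of the 8 tumor-cell clusters of TKO1 (top, red) and TKO2 (bottom, blue), with exact Poisson 95% intervals. Each panel has its own axis from 0. In TKO1 *Tph1* is tallest in clusters 3 and 7, where *Th* is at 40.5 and 14.7 CPM, and in TKO2 *Htr3a* is tallest in clusters 1 and 3.

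Within TKO2, the synthesis genes and the receptor were ordered oppositely over the clusters. *Tph1* was highest in cluster 2 (33 UMIs, 39.2 CPM) and cluster 0 (13 UMIs, 12.3 CPM), and clusters 3 and 5 had none. *Ddc* was also highest in cluster 2 (159 CPM) and lowest in cluster 1 (49.2), and *Gch1* ranged from 35.6 in cluster 2 to 3.01 in cluster 1. All 3 *Th* UMIs of TKO2 were in cluster 2. *Htr3a* was instead highest in cluster 1 (95.3 CPM), cluster 3 (88.6) and cluster 5 (65.1), and lowest in cluster 7 (10.1), cluster 2 (16.6) and cluster 0 (18.9).

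Clusters 1, 3, 5 and 6 of TKO2 held 48.6% of the tumor cells, 79.6% of the *Htr3a* UMIs, 35.9% of the *Ddc* UMIs and 3 of the 63 *Tph1* UMIs. Over the 8 clusters Spearman's rho was -0.95 for *Ddc* and *Htr3a*, -0.95 for *Gch1* and *Htr3a*, -0.85 for *Tph1* and *Htr3a*, and 0.93 for *Ddc* and *Gch1*. These coefficients are descriptions over 8 clusters of 1 library that were found from the same cells. How many pairs of all genes reach such values was not counted, so the opposite order is no trait of these genes. Of the 10 pairs of genes with at least 20 UMIs in TKO2, 6 had a negative and 4 a positive rho. In TKO1, where *Htr3a* had 36 UMIs, its rho with *Ddc* was 0.29. *Tph1* and *Th* gave -0.69 there, the lowest of 21 pairs, and *Ddc* and *Th* gave 0.86.

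Whether the cluster divide of TKO2 follows the cell cycle was not tested. Of the TKO2 clusters led by mitotic genes, cluster 5 had 65.1 CPM of *Htr3a* and no *Tph1*, and cluster 7 had 10.1 CPM of *Htr3a* and 144 of *Ddc*. Cluster 3, with the DNA replication genes *Mcm10*, *Pole* and *Rrm2* among its 10 leading genes, was *Htr3a*-high and had no *Tph1*. Cluster 1, with the highest *Htr3a*, was led by *Cdkn1c*, *Shisa8* and *Car14*, and cluster 2, with the highest *Tph1*, by *Tspan1*, *Dhx34* and *Serpinb12*. The 67 cells of TKO2 that were set aside for mixed club and neuroendocrine markers, *Calca* and *Resp18* among them, had 49.3 CPM of *Tph1* (6 UMIs, 18.1 to 107) and 205 CPM of *Ddc* (133 to 303), and 1 UMI of *Htr3a*.

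**Figure D4:**
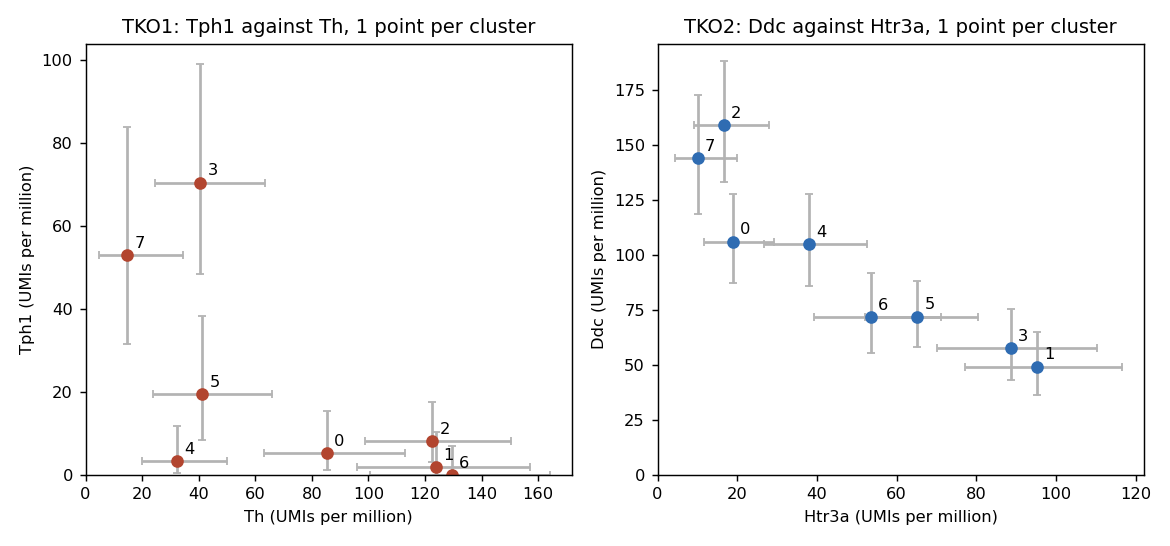
Levels in CPM of *Tph1* against *Th* in TKO1 (left) and of *Ddc* against *Htr3a* in TKO2 (right), 1 point per tumor-cell cluster with its number and exact Poisson 95% intervals. In TKO1 clusters 3 and 7 stand apart with high *Tph1* and low *Th*, and in TKO2 *Ddc* is lower where *Htr3a* is higher (Spearman's rho of -0.95 over 8 clusters).

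At the level of single cells, the steps of the pathway were seldom read together. Pairs were compared where both genes had a UMI in at least 20 thinned tumor cells, 10 pairs in each tumor. For each pair, the share of cells with the second gene was set against cells with and without the first. In none of the 20 comparisons did the 2 intervals lie apart, and the Pearson correlations over cells were all between -0.03 and 0.04. *Th* was found in 8.70% of TKO1 cells with *Ddc* (5.94 to 12.2) and 6.88% of those without (5.75 to 8.14). *Ddc* was found in 6 of 28 TKO2 cells with *Tph1* (21.4%, 8.296 to 41.0) and in 8.49% of those without. *Htr3a* was found in 3.08% of TKO2 cells with *Ddc* (1.34 to 5.97) and 4.10% of those without (3.39 to 4.90), so the opposite order seen over clusters was not detectable from cell to cell at this depth.

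*Tph1* and *Th* were together in 0 of the 27 thinned TKO1 cells with *Tph1*, against 7.26% of the other cells, and the limit of 3 cells is 11.1% of the 27. Without thinning, 2 TKO1 cells held both. The serotonin chain of *Tph1* and *Ddc* was read in 4 thinned cells of TKO1 and 6 of TKO2, or 11 and 13 without thinning. The catecholamine chain of *Th* and *Ddc* was read in 30 thinned cells of TKO1 (1.40%), or 87 without thinning, and in 0 cells of TKO2. *Th* was read in only 2 tumor cells of TKO2, too few for that 0 to tell whether the 2 genes meet there. A vesicular transporter was added to *Th* and *Ddc* in 2 thinned cells of TKO1 (12 without thinning) and to *Tph1* and *Ddc* in 0 (2 without thinning). With only 4 thinned TKO1 cells holding *Tph1* and *Ddc*, that 0 does not tell whether such cells lack a transporter.

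A synthesis gene, a transporter and *Htr3a* were read together in 0 thinned cells of either tumor, which allows up to 0.14% in TKO1 and 0.0994% in TKO2, and in 4 and 1 cells without thinning. In thinned cells a transporter was read in 4.38% of TKO1 and 0.166% of TKO2, and *Htr3a* in 0.745% and 4.01%. Genes read this seldom would rarely be read together even if unrelated, so these zeros cannot tell whether the steps meet in the same cells. At least 1 of the 10 genes was read in 32.4% of thinned TKO1 cells and 15.9% of thinned TKO2 cells. Of the 20 comparisons, 3 had intervals that lay apart when depth was treated otherwise. Without thinning, where depth was not matched between cells, *Slc18a1* was found in 19.2% of TKO1 cells with *Tph1* (9.63 to 32.5) and 6.68% of the rest (5.80 to 7.64), and *Th* in 14.2% of cells with *Ddc* (11.5 to 17.2) and 8.22% of the rest (7.14 to 9.40). At 2000 UMIs per cell, *Ddc* was found in 6 of 14 TKO2 cells with *Tph1* (42.9%, 17.7 to 71.1) and 15.5% of the rest (13.7 to 17.3).

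The rest of the pathway was taken as 68 further genes, of which 24 had at least 10 UMIs in tumor cells and 33 had none in either tumor. Of the 24, 9 were at least 2-fold higher in TKO1, 7 in TKO2 and 8 in neither, beside 31.1% and 12.3% of all genes counted in the respective directions (37.5% and 29.2% of the 24). The 6 further genes of the cofactor pathway on this list were all counted, and 3 were higher in TKO1. These were *Pts* (549 UMIs in TKO1 and 483 in TKO2, log2 ratio 1.06, 0.88 to 1.24), *Pcbd2* (1.38, 1.19 to 1.57) and *Gchfr*, which encodes the feedback regulator of the *Gch1* product (126 and 71 UMIs, 1.71, 1.27 to 2.15). *Spr*, *Qdpr* and *Pcbd1* were under 2-fold. With the shift of all genes subtracted, *Pts* was under 2-fold as well.

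Among the other genes of breakdown, *Aldh2* and *Aldh1a1*, aldehyde dehydrogenases that oxidize the aldehyde left by monoamine oxidase among many other substrates, were far apart between the tumors. *Aldh2* had 915 UMIs in TKO1 (217 CPM) and 55 in TKO2 (7.09 CPM), a log2 ratio of 4.93 (4.54 to 5.35), and *Aldh1a1* had 116 and 3, a log2 ratio of 6.15 (4.57 to 8.45). In TKO1 *Aldh2* was lowest in cluster 7 (38.3 CPM), and in the other clusters it ranged from 128 CPM in cluster 4 to 301 in cluster 1. *Akr1a1* (2768 and 2895 UMIs) was under 2-fold.

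Of the 11 other transport genes, the 4 counted were all at least 2-fold higher in TKO2, as were 12.3% of all genes counted (18.7% with the shift of all genes subtracted). These were *Slc29a4*, a low-affinity monoamine carrier of the plasma membrane (24 and 210 UMIs, log2 ratio -2.25, -2.93 to -1.64), *Slc3a2* (195 and 1002, -1.48, -1.71 to -1.26) and *Slc7a5* (38 and 158, -1.18, -1.73 to -0.66), which together form a carrier of large neutral amino acids such as tryptophan, and the acetylcholine transporter *Slc18a3* (6 and 25, -1.18, -2.76 to 0.14). Of the 13 other serotonin receptors, none reached 10 UMIs and 11 had 0 UMIs in both tumors. Among 15 dopamine, adrenergic and trace amine receptors, *Drd4* had 0 UMIs in TKO1 and 108 in TKO2. With TKO1 set at 3 UMIs it was 19.6-fold higher in TKO2. The interval, taken from the 0 as read, ran from 15.7-fold up. *Adrb1* had 36 UMIs in TKO1 and 0 in TKO2, 22.0-fold higher in TKO1 with TKO2 set at 3 UMIs. Its interval, also taken from the 0 as read, ran from 17.0-fold up. *Adra2a* had 21 and 3 (log2 ratio 3.69, 1.94 to 6.07).

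Of 7 synthesis genes beyond the 4, only *Hdc* reached 10 UMIs. *Hdc*, whose product makes histamine, had 11 UMIs in TKO1 and 1 in TKO2, *Tph2* had 0 and 5, and *Dbh*, which turns dopamine into noradrenaline, had 0 in both. Of 10 transcription factors tied to monoaminergic cells, 7 were counted. *Fev*, which directs serotonergic identity in the brain, was higher in TKO1 (53 and 16 UMIs, log2 ratio 2.61, 1.78 to 3.51), and *Nr4a2*, a factor of dopamine neurons, was higher in TKO2 (7 and 103 UMIs, -3.00, -4.35 to -1.91), the tumor with 3 UMIs of *Th*. *Gata2* had 0 UMIs in TKO1 and 57 in TKO2, 10.3-fold higher in TKO2 with TKO1 set at 3 UMIs. Its interval, taken from the 0 as read, ran from 8.14-fold up. Of the 57, 17 each were in the *Htr3a*-high clusters 1 and 5. *Lmx1b*, *Insm1*, *Foxa2* and *Phox2a* were under 2-fold.

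**Figure D5:**
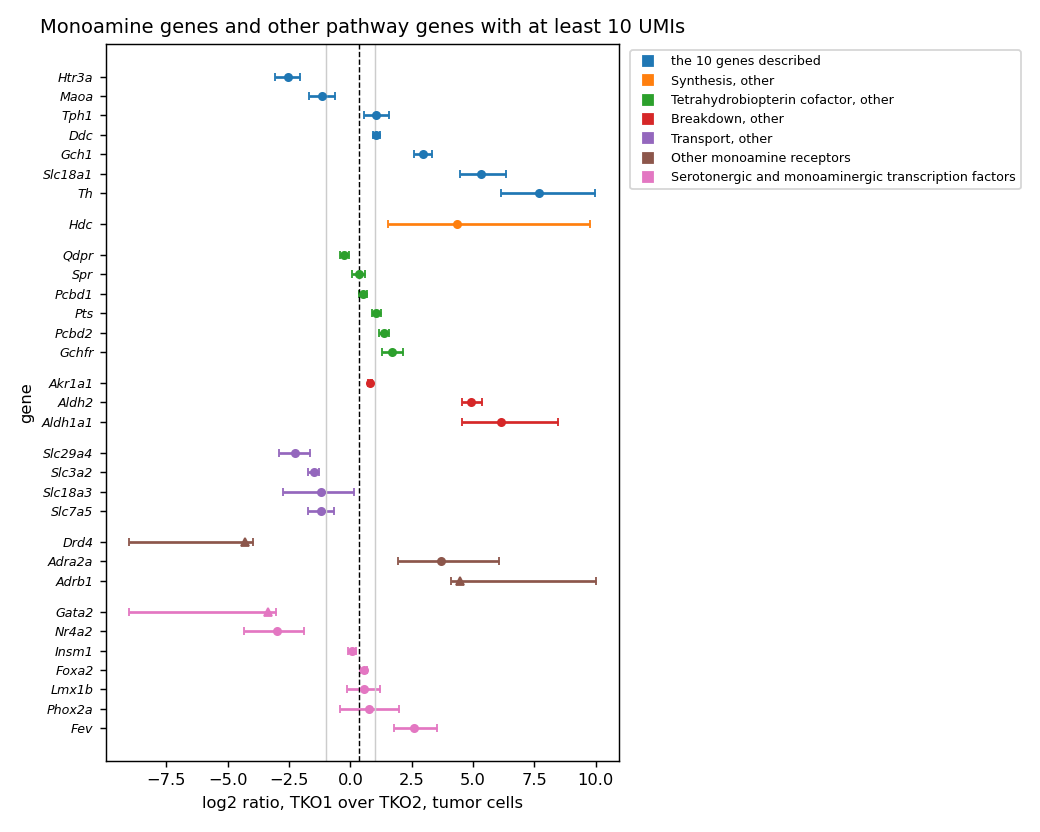
Log2 ratio of TKO1 over TKO2 in tumor cells for the 7 genes counted and the 24 further pathway genes with at least 10 UMIs, colored by list, with exact 95% intervals drawn no further than -9 and 10. Triangles are genes with 0 UMIs in a tumor, set at 3 UMIs for the ratio, while their intervals are from the 0 as read. The dashed line is the median of all genes (0.37), and gray lines mark 2-fold. *Th*, *Aldh1a1*, *Slc18a1* and *Aldh2* lie farthest to the right, and *Drd4*, *Gata2*, *Nr4a2* and *Htr3a* farthest to the left.

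The genes whose counts most resembled those of a monoamine gene over single cells were named for *Ddc*, *Th*, *Gch1* and *Slc18a1* in TKO1 and for *Ddc* in TKO2, the cases whose mean reached 0.05 UMIs in a thinned cell. The closest were *Pitpna* to *Gch1* (Pearson r 0.11), *Pura* to *Th* (0.11), *Slc35d3* to *Slc18a1* (0.11), and *Ubap2* and *Fmr1* to *Ddc* (0.092 in TKO1 and 0.089 in TKO2). All were weak, over 2148 cells of TKO1 and 3019 of TKO2 that share a library and a thinned depth, and are no finding.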

How the data were processed

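Single cells of 1 lung tumor from each of 2 mice were captured on the 10x Chromium. The deposited files hold raw UMI counts per gene and barcode, which the authors made with Cell Ranger on mm10, per the submitters' processing notes, with no further normalization. Versions are not given in the sources used here.

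Barcodes with more than 500 detected genes and under 10% mitochondrial UMIs were retained (the highest value was 7.60%). Each tumor was clustered with Seurat 5.3.0 (genes in at least 10 cells, 10000 UMIs per cell, 1000 variable genes, 10 principal components, resolution 0.8). A cluster took the name of a marker list when over 50% of the list reached 20 UMIs and a 4-fold higher level than in the other cells, and was called mixed when 3 neuroendocrine markers did so too. The rest were called neuroendocrine-like when at least 3 markers were 2-fold above the macrophage-like cells. This naming rule was set after the clusters were seen, and the genes and lists were chosen with earlier results of these data known. Scrublet (scanpy 1.11.5) called 0 doublets of 3193 and of 3568 cells. Its calls were not relied on, and any doublets stayed in.

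Levels are UMIs of a gene per 1000000 UMIs (CPM) of the summed UMIs of tumor cells, with exact Poisson intervals. Ratios have exact conditional binomial intervals, which use the counts as read. A tumor with 0 UMIs is set at 3 for the ratio itself, not for its interval. Shares have Clopper-Pearson intervals after thinning to 1000 UMIs (seed 1). Genes with at least 10 UMIs over both tumors were counted. Levels of different genes are not compared, since counts near the transcript end differ in capture. Named genes were the 10 genes, pathway genes with at least 20 UMIs or counted in a list, markers, and the 5 most correlated genes. *Hdc* and *Tph2* fall below that minimum and were named after their values were seen. Scripts were tested on simulated data. Sequences are from RefSeq (GRCm38.p6) and gene positions from GENCODE. Some genes of the lists are not reported here and were left out of the lists' counts.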

Additional observations from a re-analysis of the deposited data

Results flagged for a closer look

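Barcodes with 500 or fewer detected genes entered no comparison (1321 in TKO1 and 248 in TKO2), yet several of the genes gave more than 3 UMIs there. In TKO1 these were *Ddc* (168 CPM), *Gch1* (65.4), *Slc18a1* (65.4), *Th* (37.6), *Tph1* (15.3) and *Htr3a* (11.1). In TKO2 they were *Ddc* (75.2 CPM), *Gch1* (37.6) and *Slc18a1* (21.5), the last from 4 UMIs. *Th* had 0 UMIs in these barcodes of TKO2.

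The log2 ratio of tumor cells over macrophage-like cells had opposite signs in the 2 tumors for 2 genes, and the difference between tumors was not tested. For *Gch1* it was 0.53 in TKO1 (-0.47 to 1.75) and -1.78 in TKO2 (-2.83 to -0.52). For *Slc18a1* it was 3.03 in TKO1 (0.54 to 8.34) and -1.65 in TKO2 (-4.43 to 3.78), with 1 macrophage-like UMI in each tumor.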

How the results depend on the processing

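No paired analysis was possible because each tumor is 1 library and no result comes from a test. Over 12 alternatives, 79 of 84 log2 ratios of the 7 genes stayed within their counting interval and none changed sign. The ranges were 7.09 to 7.86 for *Th*, 4.96 to 5.54 for *Slc18a1*, 2.61 to 3.41 for *Gch1*, 0.70 to 1.15 for *Ddc*, 0.15 to 1.29 for *Tph1*, -1.49 to -0.96 for *Maoa* and -2.90 to -2.42 for *Htr3a*.

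The count of genes at least 2-fold higher in TKO1 was 3 in place of 5 with edgeR 4.0.16 TMM factors, with totals that leave out mitochondrial and ribosomal protein genes, with equal weight per cell, without the 5% of cells with the most UMIs, and, added after seeing the data, with the median of all genes subtracted. With TMM factors 23.5% of all genes were at least 2-fold higher in TKO1 and 18.4% in TKO2. The count higher in TKO2 was 1 in place of 2 among cells with more than 1000 detected genes. There 11.4% of all genes were at least 2-fold higher in TKO2. The median of the genes was 0.70 with TMM factors, 0.83 with the reduced totals, 1.29 with more than 1000 detected genes and 1.88 over all retained cells, where *Maob* reached 10 UMIs and was counted. Without clusters 3 and 5 of TKO1, chosen after seeing the data, *Tph1* was the gene that fell below 2-fold.

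Pairs with co-detection intervals apart were 0 in both tumors except for 2 in TKO1 without thinning and 1 in TKO2 at 2000 UMIs. Co-detection with *Tph1* rests on the 27 and 28 thinned cells in which it was read.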
